A study of Drosophila eugracilis and Drosophila pseudoobscura and Drosophila bifasciata with 4 samples.

Results

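Tandem 3' end sites are places where at least 2 RNA 3' ends lie close together on 1 strand of the genome. In ovaries of Drosophila eugracilis, 3098 such sites were found among 7698 supported 3' end sites (40.2%), and the other 4600 sites (59.8%) were isolated. The sites came from a pair of libraries of wild type females on standard food. Their strain is SHL12 in the labels, while the methods of the study name another stock identifier, and their age is given as 2 to 7 days in the labels and 3 to 7 days in the protocol. The first was made with QuantSeq from total RNA, where copying begins at an oligo-dT primer and reads therefore gather directly upstream of a run of adenosines. The second held oligo-dT selected RNA (polyA) in a directional library, which reads fragments from the whole transcript and keeps their strand. There was 1 library of each kind and no replicate, so no difference below was tested, and intervals are exact 95% intervals. For the share of a single pair they cover counting error only, and for shares and medians over sites or pairs they treat these as independent draws, which neighbouring sites of a group are not.

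A site was chosen by the reads themselves. Overlapping unspliced QuantSeq alignments of 1 strand were merged into islands, and islands with 50 or more reads were kept (7878 of 50522). An island was supported when 10 or more polyA alignments began between 1000 nt upstream and its 3' edge, which 180 islands were not. It was tandem when another supported island lay within 2000 nt on the same strand. The position at which most reads of an island ended (the modal 3' end) was taken as the site. The islands nearest to each limit had 50 reads inside against 49 outside, 10 polyA alignments inside against 9 outside, and a gap of 1994 nt inside against 2003 nt outside. Reads per site, polyA support and the upper limit of the gap were therefore set by these choices and are given as a description.

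Messenger RNAs end where the nascent transcript is cleaved and a poly(A) tail is added. Many genes carry more than 1 such poly(A) site, and cleavage at the upstream (proximal) or the downstream (distal) site gives transcripts with a shorter or a longer 3' untranslated region (3' UTR), which can carry binding sites for microRNAs and RNA-binding proteins. In D. melanogaster, nervous tissue is known for long 3' UTRs and testis for short ones. Neighbouring 3' ends can also belong to separate genes that follow each other closely on a strand, to a transcript that ends inside an intron, or to oligo-dT priming on a run of adenosines within a transcript. The last of these was not tested here, since no genome sequence was used. Near the pseudogene of yb, the study marks a peak of its D. eugracilis 3' end reads as suspected internal priming.

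The 3098 sites formed 1345 groups and 1753 pairs of neighbours. Of the groups, 1043 held 2 sites, 228 held 3 and 74 held 4 or more, up to 8. Tandem islands held 2689949 of the 6256158 QuantSeq alignments (43.0%) and isolated islands 3056508 (48.9%). Tandem sites lay on 77 contigs. Over the 22 contigs with at least 100 supported sites, the share of tandem sites ran between 33.9% (contig NW_024573535.1, 40 of 118) and 48.0% (NW_024573030.1, 71 of 148), with a median of 39.97%. Contig NW_024571840.1 stood apart. All 15 of its supported sites were tandem, and they held 331064 reads, 12.3% of those in tandem sites. It had no placed genes and added 10 pairs.

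In shape, tandem sites resembled isolated ones. The median island was 302 nt wide at proximal sites, which are all sites of a group but its last, 285 nt at last sites and 311 nt at isolated sites. The median share of an island's reads that ended within 10 nt of the modal 3' end was 66.4% at proximal, 67.2% at last and 66.7% at isolated sites. The median number of reads was 173 at proximal, 171 at last and 203 at isolated sites, over the 50 that the choice required. The polyA library gave a further reading of the ends, because a fragment that reaches the tail ends at the site. Where at least 4 polyA alignments ended within 25 nt of a proximal site, their most frequent end lay within 2 nt of it at 106 of 689 sites (15.4%, 12.8 to 18.3). Around a point 100 nt upstream, chosen for comparison, this held at 91 of 966 sites (9.42%, 7.65 to 11.4). The shares were 11.75% (8.49 to 15.7) and 8.41% (6.365 to 10.9) for last sites, with overlapping intervals. For isolated sites they were 12.1% (10.4 to 14.1) and 8.82% (7.69 to 10.05).

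The spacing of neighbouring sites had a median of 690 nt (640 to 727), with quartiles of 381 and 1330 nt and a range of 69 to 2765 nt. The gap between the islands was under 50 nt in 419 pairs (23.9%), where the reads of neighbouring sites all but touched. Spacing went with the position relative to genes. The gene table for the assembly lists starts and ends without contig or strand, and these were inferred from splice junctions and polyA reads, which placed 14069 of 15386 genes. Of the 1645 pairs on placed contigs, 894 (54.35%) had both sites in the same gene, 392 (23.8%) had them in 2 genes, and in 240 (14.6%) the proximal site lay in a gene and the distal site past it. The remaining pairs had the proximal site (33) or both sites (86) outside genes. The median spacing was 516 nt (488 to 545) within a gene, 560.5 nt (473 to 642) where the distal site lay past the gene, and 1546 nt (1492 to 1599) between genes. Of pairs spaced by up to 250 nt, 74.3% were in 1 gene and 1.17% in 2 genes, whereas of pairs spaced by 1501 nt or more, 25.95% were in 1 gene and 62.1% in 2 genes. The limit of 2000 nt in the choice leaves out wider pairs, so the median between genes depends on this limit.

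**Figure D1:**
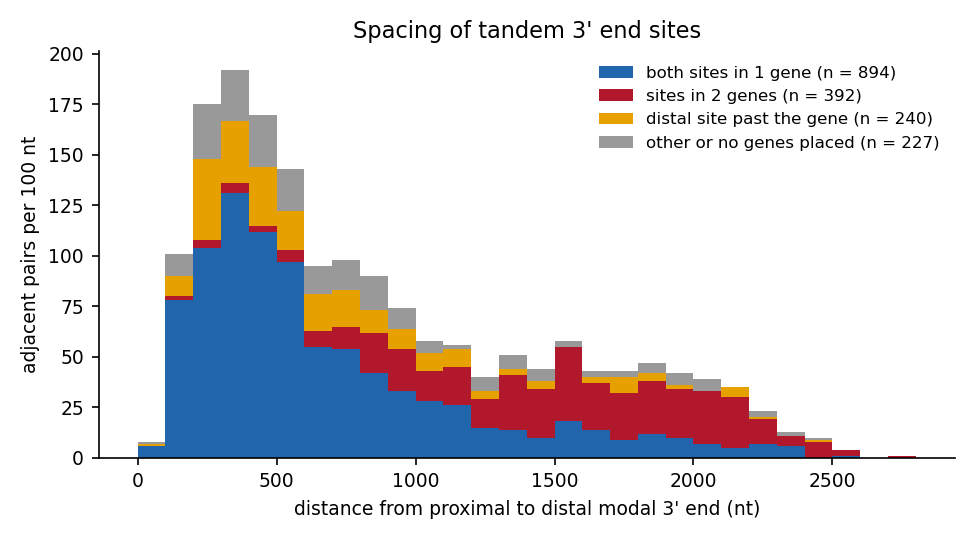
Number of adjacent pairs of tandem sites (vertical axis, pairs per 100 nt) by the distance from the proximal to the distal modal 3' end (horizontal axis, nt), stacked by position relative to genes. The 894 pairs within 1 gene have a median of 516 nt and the 392 pairs in 2 genes a median of 1546 nt. Of the pairs in 2 genes, 99 lie at 1001 to 1500 nt and 213 at 1501 nt or more. The limit in the choice leaves out wider pairs, so the median of the pairs in 2 genes depends on it.

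The pairs within 1 gene fell in 737 genes, of which 114 held at least 2 such pairs and 9 at least 4. The distal site lay within 25 nt of an annotated gene end in 463 of the 894 pairs (51.8%). With both sites in the shared gene, the proximal site could not lie this close to that gene's end, and the 29 proximal sites (3.24%) near an annotated end were near that of another, overlapping gene. In pairs across 2 genes, the proximal site was at an annotated end in 311 of 392 (79.3%) and the distal site in 236 (60.2%). Where the distal site lay past the gene, the proximal site was at an annotated end in 127 of 240 (52.9%). Genes could overlap, and in 49 of the 894 pairs the sites differed in a further gene that overlapped the shared one. Over all placed contigs, 467 of 1645 proximal sites (28.4%), 628 of 1272 last sites (49.4%) and 2690 of 4332 isolated sites (62.1%) lay within 25 nt of an annotated gene end.

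Use of the sites was compared by the proximal share, which is the reads of the proximal site divided by the reads of both. Over all pairs neither side prevailed. The median proximal share was 50.4% (48.55 to 52.5), with more reads at the proximal site in 880 pairs (50.2%), at the distal site in 867 (49.5%) and equal reads in 6. The proximal site exceeded the distal one by over 2-fold in 533 pairs (30.4%), the distal site exceeded the proximal one by over 2-fold in 516 (29.4%), and 704 pairs (40.2%) lay within 2-fold. Differences over 10-fold were found in favour of the proximal site in 101 pairs and of the distal site in 134. By counting error alone, the interval of the share lay above 50% in 752 pairs and below it in 741. The floor of 50 reads at each site narrows the share in weak pairs. The 438 pairs with fewest reads had quartiles of 39.3% and 60.2%, and the 439 pairs with most reads 7.21% and 87.4%. In groups of 3, the first site had most reads in 84 of 228 groups (36.8%), the second in 67 (29.4%) and the third in 77 (33.8%).

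The share differed with the position relative to genes. Its median was 45.2% (42.8 to 48.0) within 1 gene, where the proximal site had more reads in 394 of 894 pairs (44.1%, 40.8 to 47.4). Across 2 genes it was 52.4% (48.0 to 56.7). There the sites lay in the spans of different genes, and whether a distal end belonged to a transcript of the first gene was not tested. Where the distal site lay past the annotated gene, it was 68.5% (63.6 to 73.9), with more reads at the proximal site in 165 of 240 pairs (68.75%). These pairs had a median of 230 reads at the proximal site and 121 reads at the distal site. In the 33 pairs with only the proximal site outside genes it was 32.75% (25.7 to 42.8). Among these 4 classes it was thus lowest where the proximal site lay outside genes and highest where the distal site lay past the gene.

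**Figure D2:**
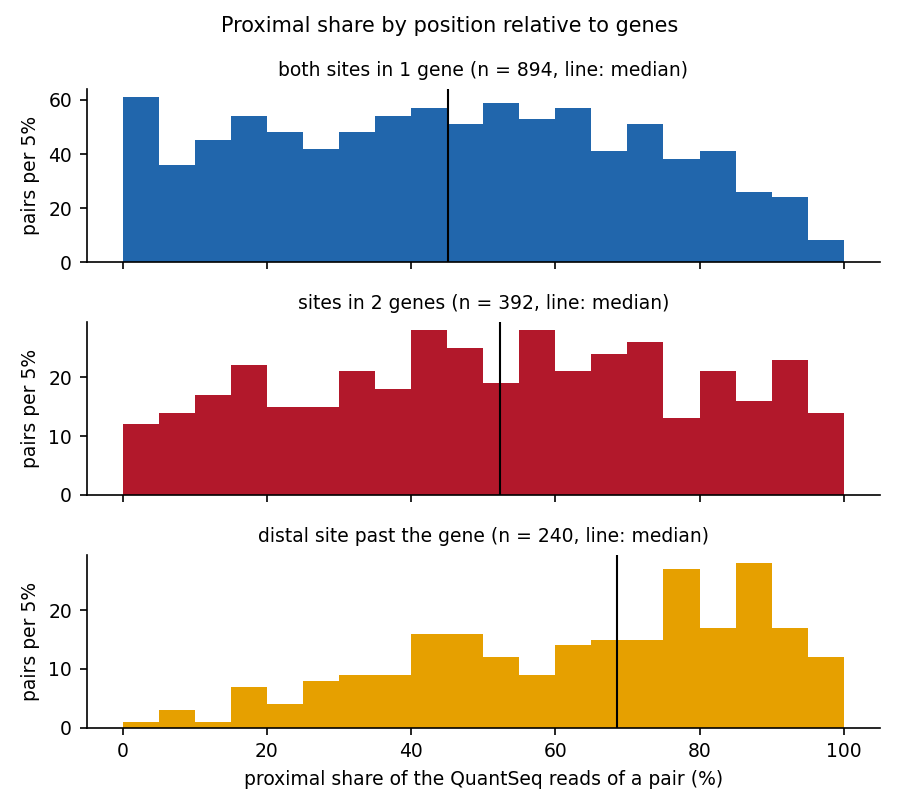
Proximal share of the QuantSeq reads of a pair (horizontal axis, %) against the number of pairs in bins of 5% (vertical axes), for pairs within 1 gene, across 2 genes, and with the distal site past the gene. The vertical lines mark the medians of 45.2%, 52.4% and 68.5%.

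Unbroken polyA coverage between the sites of a pair would be seen where transcripts run on through the proximal site. At least 1 polyA alignment covered every base between the modal 3' ends in 212 pairs (12.1%, 10.6 to 13.7). In 302 pairs (17.2%) the cover was complete only when the introns of spliced alignments counted (bridged), and in 1239 (70.7%) it was broken, with a median of 190 uncovered nt. Coverage in this library faded before 3' ends of every kind, as given further on, so the bases just ahead of a distal site were thinly covered. With the interval ended at the upstream edge of the distal island, an alternative added after the data were seen, cover was unbroken in 558 pairs (31.8%, 29.7 to 34.1), bridged in 352 (20.1%) and broken in 843 (48.1%). By that measure 401 of 894 pairs within 1 gene (44.85%) were unbroken, 6 of 392 pairs across 2 genes (1.53%) and 82 of 240 pairs with the distal site past the gene (34.2%). Pairs across 2 genes were also spaced more widely, and gene position and spacing were not separated here. Close pairs were unbroken more often, with 57.8% of those spaced by up to 250 nt and 2.79% of those spaced by 1501 nt or more. For close pairs the polyA window of the choice covers the interval itself, so part of this was set by the rule. The 212 pairs that were unbroken up to the modal end had a median spacing of 391 nt and a median lowest cover of 4 alignments. With at least 5 alignments asked at every base, 5.31% of all pairs were unbroken, so the class rests on thin cover in many pairs.

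The coverage ratio gave the drop at a site, as mean polyA coverage in the 200 nt downstream over that in the 200 nt upstream. It was 0.353 in the median at proximal sites (0.308 to 0.396, n = 1721), 0.000411 at the last site of a group (n = 1261) and 0 at isolated sites (n = 4483). A ratio of 0.5 or less was found at 1001 proximal sites (58.2%), 1087 last sites (86.2%) and 4033 isolated sites (89.96%), against 82% of all 7465 supported sites with a ratio. Coverage that was as high or higher downstream, a ratio of 1 or more, was found at 422 proximal sites (24.5%), 101 last sites (8.01%) and 278 isolated sites (6.20%), against 10.7% of all supported sites. Last sites of a group lay close to isolated sites in these shares, and proximal sites had the lower share of drops. That a proximal site is followed by another supported site within 2000 nt was part of its choice, and coverage downstream of it could belong to the next site. By the same choice, last and isolated sites had no supported site within 2000 nt downstream. Their likeness, and the contrast with proximal sites, were therefore set in part by the rule. The upstream window includes the fading before the ends. Moved to 100 to 300 nt before the site, it gave a median ratio of 0.248 at proximal sites.

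Base by base, relative to the level 100 to 300 nt upstream, the median polyA coverage at 100 nt before the modal 3' end was 0.764 at proximal, 0.646 at last and 0.666 at isolated sites. At the modal end itself it was 0.151 at proximal sites and 0 at last and isolated sites. Coverage was exactly 0 at the modal end in 30.5% of proximal, 61.2% of last and 58.9% of isolated sites. Past the end, the median at proximal sites was 0.129 at 100 nt and 0.0876 at 300 nt, while it stayed at 0 for last and isolated sites. As above, only proximal sites were chosen with a further supported site downstream. The cause of the fading before the ends was not tested.

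**Figure D3:**
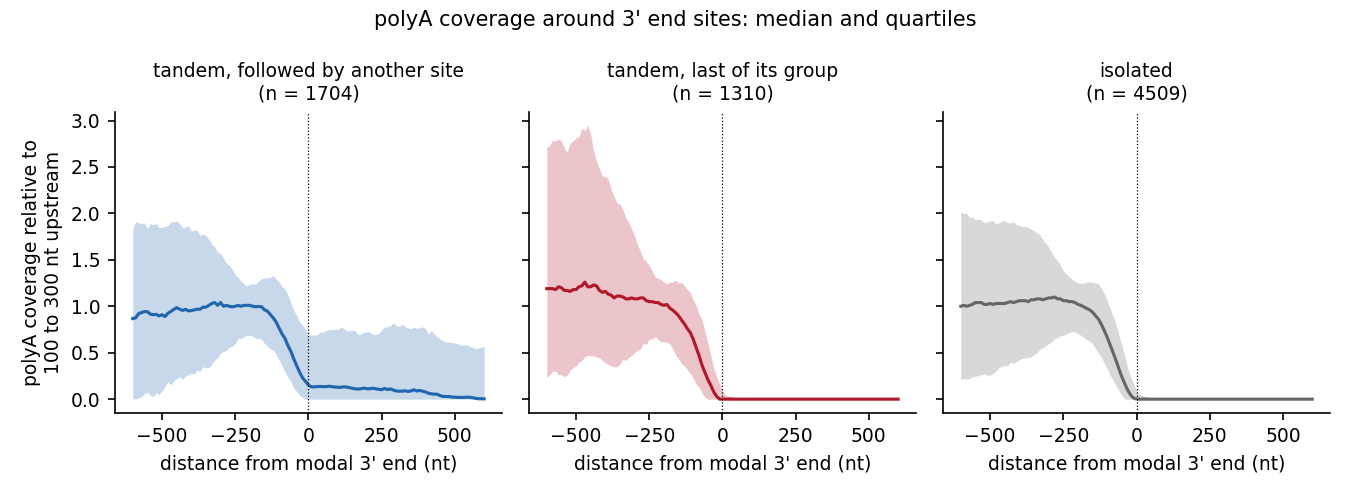
polyA coverage by distance from the modal 3' end (horizontal axis, nt, negative upstream), relative to the mean of each site between 100 and 300 nt upstream (vertical axis), as median (line) and quartiles (band) of tandem sites followed by another site, last tandem sites and isolated sites. Only the first class keeps a median above 0 past the end, 0.129 at 100 nt. A further supported site downstream was part of the choice of this class alone.

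Split by genes, the median coverage ratio at the proximal site was 0.596 (0.553 to 0.664) within 1 gene, 0.00219 (0.00037 to 0.00693) across 2 genes, and 0.227 (0.171 to 0.324) where the distal site lay past the gene. A ratio of 0.5 or less was found at 385 of 878 proximal sites within 1 gene (43.85%), at 347 of 386 across 2 genes (89.9%) and at 151 of 237 with the distal site past the gene (63.7%). Pairs across 2 genes had drops at their proximal sites about as often as isolated sites did (89.96%). They were also spaced more widely, and the ratio differed with spacing. Over all pairs, the median ratio was 0.1425 at spacings of 1001 to 1500 nt and 0.0229 at 1501 nt or more. It was 0.324 at up to 250 nt, and higher at the spacings in between. Gene position and spacing were not separated, so whether the gene boundary itself went with the drop was not tested. Within 1 gene, coverage was as high or higher downstream at 302 proximal sites (34.4%, 31.25 to 37.6). As above, the upstream window of this share includes the fading before the ends. At the distal sites of pairs within 1 gene the median ratio was 0.0152.

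Introns covered some of these sites. An intron of at least 3 spliced polyA alignments ran over 227 proximal sites (12.95%), 84 last sites (6.25%) and 220 isolated sites (4.78%). Within 1 gene, it did so at 165 of 894 proximal sites (18.5%). The median spacing of these pairs was 741 nt, against 493 nt in the 729 pairs within 1 gene whose proximal site was under no such intron. Their median proximal share was 40.1% (36.0 to 51.4), against 45.9% (43.35 to 48.9), and their median coverage ratio 0.425 (0.304 to 0.588), against 0.618 (0.578 to 0.693). The intervals of the shares overlapped, as did those of the ratios.

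QuantSeq use and the polyA drop were only weakly related. The comparison asks whether a higher proximal share went with a lower coverage ratio at the same site. Over the 878 pairs within 1 gene, the median ratio was 0.794 at proximal shares up to 25%, 0.617 at 25 to 50%, 0.577 at 50 to 75% and 0.329 above 75%. The rank correlation across these pairs was -0.189 (Pearson -0.168 on the log scale). It was -0.095 in the 399 such pairs with unbroken cover up to the distal island and -0.000745 in the 386 pairs across 2 genes. All pairs share 1 pair of libraries and are not independent replicates, and the values describe these pairs without a test.

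**Figure D4:**
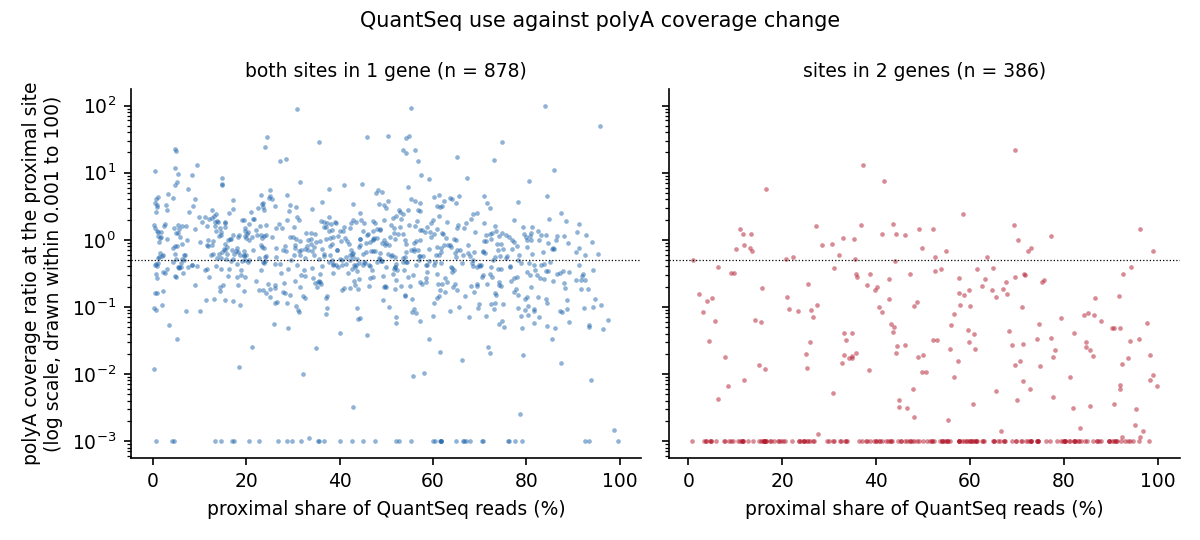
Coverage ratio at the proximal site (vertical axis, log scale, values drawn within 0.001 to 100) against the proximal share of QuantSeq reads (horizontal axis, %), 1 point per pair, for 878 pairs within 1 gene and 386 pairs across 2 genes. The dotted line marks a ratio of 0.5, below or at which 43.85% of the first and 89.9% of the second lie. The second are also spaced more widely, and gene position and spacing are not separated.

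The strongest pairs with unbroken cover were mostly very unequal. Most genes of this assembly are known only by a number, without a product in the table used, so no function is given for them. In LOC108113223 (NW_024573812.1, minus strand), the sites at 4537698 and 4537243 had 56 reads at the proximal site and 31630 at the distal site, which lies 1 nt before the gene's end. Mean polyA coverage was 15175 downstream and 9286 upstream of the proximal site, a ratio of 1.63. This proximal site thus held 0.177% of the reads of its pair and coverage did not drop at it.

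A far stronger distal site was seen in other genes too, with or without a drop in coverage at the proximal site. LOC108104818 (NW_024572605.1, plus strand, sites at 5786520 and 5786979) had 102 proximal and 29700 distal reads and a coverage ratio of 3.54. LOC108110862 (NW_024573036.1, sites at 23218 and 23356) had 272 proximal and 26564 distal reads, and its ratio was 1.295 with no fewer than 640 alignments over any base between the sites. LOC108102568 (NW_024571981.1, sites at 332681 and 333190) had 103 proximal and 28347 distal reads with a ratio of 0.162. LOC108110786 had 111 proximal and 16513 distal reads, a ratio of 0.308 and a lowest cover of 1 alignment. LOC108109165 had 85 proximal and 14240 distal reads, a ratio of 0.437 and a lowest cover of 2. In LOC108113813 the proximal site (456 reads, against 24211 distal reads) had a ratio of 0.107. It was spanned by the introns of 2045 spliced polyA alignments. In these 7 genes the proximal share was 1.85% or less, and the distal site lay within 12 nt of the gene's annotated end in LOC108113223, LOC108104818, LOC108102568 and LOC108110786. The coverage ratio at the distal site was 0.643 in LOC108110862 and 0.675 in LOC108113813, where coverage ran on past it. In the others of the 7 genes it was 0.1373 or less.

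Among unbroken pairs with at least 1000 reads (74 pairs), none of the 5 highest proximal shares was found within 1 gene. The site at the end of LOC108110350 (NW_024573338.1, minus strand, 430070) had 35339 reads, against 77 reads at 429806, 264 nt further, inside LOC108110342 and 3925 nt before that gene's end. Coverage fell there to 22.4 downstream, against 3378 upstream. LOC108115995 followed by LOC108115994 had 15711 proximal and 141 distal reads and a ratio of 0.0097. In LOC108111421 (2142 proximal and 90 distal reads, ratio 0.0368) and LOC108113275 (1108 proximal and 63 distal reads, ratio 0.0111), the distal site lay past the annotated gene. In these 4 pairs a dominant proximal site went with a steep drop. In the previous genes the proximal site was the weaker one, and its ratio ranged between 0.107 in LOC108113813 and 3.54 in LOC108104818. A further 2 unbroken pairs outside genes were as unequal. On NW_024573030.1 (minus strand) the sites at 55990 and 55644 had 142 proximal and 56819 distal reads, and on NW_024573712.1 those at 872099 and 872467 had 2374 proximal and 109 distal reads. The unbroken pair with most reads lay on NW_024571840.1, with 45765 reads at 3347 and 39806 reads at 4103.

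Pairs within 1 gene with more balanced use were looked up after the values had been seen. Of 222 such pairs with cover unbroken to the distal island and a proximal share of 25 to 75%, those with most reads are given. LOC108113166 (NW_024573812.1, minus strand) had 5649 reads at 8632043 and 2726 reads at 8630716, a proximal share of 67.5%, with mean coverage of 421 downstream and 504 upstream of the proximal site. LOC108112664 (2898637 and 2897583 on the same contig and strand) had 3674 proximal and 2917 distal reads, and coverage of 18.4 downstream and 60.7 upstream of the proximal site. Its distal site lay 5 nt before the gene's end. LOC108112919 had 2758 proximal and 951 distal reads with a coverage ratio of 0.567. LOC108110765 had 963 proximal and 2327 distal reads with a ratio of 0.149. LOC108106976 had 1749 proximal and 1515 distal reads with a ratio of 0.461, and LOC108109868 had 812 proximal and 1196 distal reads with a ratio of 0.422. Both sites of each of these pairs had many QuantSeq reads, and the drop at the proximal site ranged from slight to steep. At the distal site, coverage did not drop in LOC108106976 (ratio 1.31), and the ratio was 0.07853 or less in the other pairs. Whether the reads of each site mark cleavage there was not tested.

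Of the 5 broken pairs with most reads, 3 lay across 2 genes. LOC108105700 followed by LOC108105714 (NW_024571981.1, minus strand, 3867596 and 3866056) had 191 proximal and 24034 distal reads, and the proximal site lay 2 nt before the end of its gene. No polyA alignment covered the 200 nt downstream of it, against a mean of 5.55 upstream. LOC108102621 followed by LOC108102698 had 21294 proximal and 844 distal reads over 2087 nt, with a ratio of 0.00116. LOC108113813 followed by LOC108113804 had 24211 proximal and 231 distal reads and a ratio of 0.675. LOC108109388 held the distal site of a pair with 146 proximal and 21887 distal reads, the proximal site lying outside genes with no coverage in the 200 nt downstream of it. On NW_024571840.1 (minus strand), 166053 reads at 13075 and 900 reads at 12839 formed the broken pair with most reads.

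Where the distal site lay past the annotated gene, pairs with cover unbroken to the distal island (also chosen after their values were seen) went both ways. LOC121530323 had 175 proximal and 7416 distal reads spaced by 176 nt, with a ratio of 0.121, and the proximal site lay 60 nt before the annotated end. LOC108115678 had 3141 proximal and 202 distal reads (ratio 0.842), LOC108111865 had 2819 proximal and 211 distal reads (ratio 0.0795), and LOC108117117 had 2049 proximal and 281 distal reads (ratio 3.56). In LOC108111865 the proximal site lay 2 nt before the annotated end, in LOC108115678 304 nt and in LOC108117117 144 nt before it.

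The largest groups were of different kinds. The group of 8 sites lay over LOC108116891 and past it (NW_024573263.1, plus strand, 1029471 to 1037742). In genome order its sites had 261, 662, 3939, 163, 484, 421, 4441 and 57 reads, so that the third and the seventh dominated. The introns of 244 to 246 spliced alignments ran over each site up to the sixth, and the sixth site lay 16 nt before the end of LOC121530216, a further gene inside LOC108116891. A group of 7 sites lay inside LOC108114856 (NW_024572672.1, plus strand, 23386 to 29854) and had 128, 109, 21836, 107494, 29137, 2084 and 21250 reads. Its 4 strongest sites lay 3, 8, 2 and 5 nt before the ends of LOC121529739, LOC121529741, LOC121529742 and LOC121529750, small genes in a row within the larger one. The coverage ratio at these 4 sites was 3.06e-05, 0.00254, 0.000653 and 0.000773. The pairs of the third with the fourth, the fourth with the fifth and the fifth with the sixth site counted as within 1 gene. They did so by the larger gene, although their sites lay in separate smaller genes. The other group of 7 sites began in LOC108109493 (NW_024573338.1, plus strand, 1418964 to 1423307), with 225, 589, 109, 686, 301, 77 and 629 reads. There the fourth site lay 3 nt before the gene's end and the last 3 sites lay past it. Coverage was as high or higher downstream at the first 3 sites, with ratios of 1.52, 4.51 and 1.94, and the reads were spread over all 7 sites.

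**Figure D5:**
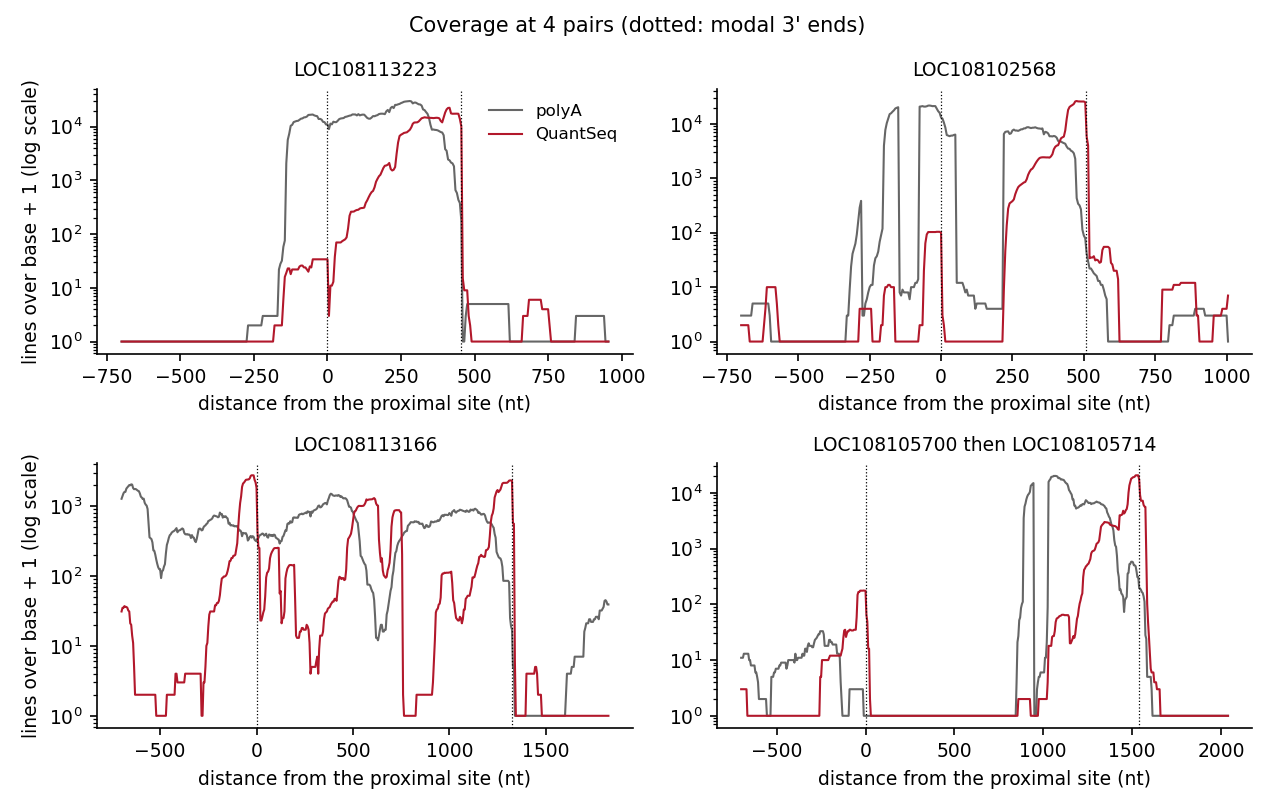
polyA and QuantSeq alignments over each base plus 1 (vertical axes, log scale) by distance from the proximal site along the RNA (horizontal axes, nt) for LOC108113223, LOC108102568, LOC108113166, and LOC108105700 followed by LOC108105714. Dotted lines mark the proximal and distal modal 3' ends, and in the last pair no polyA alignment covers the 200 nt past the proximal site.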

How the data were processed

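The authors trimmed adapters (and poly-A stretches from QuantSeq reads), filtered by quality and mapped reads to ASM1815383v1 with STAR 2.7.3a at no more than 3 mismatches. The deposited lists (SAMtools 1.10, bedtools 2.28.0) hold genome-unique alignments. The score column in the authors' files held the same value in every line and was not used as a level. The QuantSeq library held 6256158 alignments (1 per read) and the polyA library 13099511 (1 per mate). Depth limits cover in weak pairs. PCR reads are not independent molecules.

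Islands were built in Python 3.11.15 with numpy 2.4.6, pandas 2.3.3 and scipy 1.17.1. Merging by the whole span of spliced alignments, the choice first written down, joined islands across introns (spans up to 1083687 nt). The 242837 spliced alignments (3.88%) were therefore left out, which had been listed as an alternative. This swap was made after seeing the data. Supporting polyA alignments were counted by their 5' end, and the gap was taken between nearest island edges. Coverage windows of 200 nt stopped at the neighbouring site of a group and needed 50 nt.

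A run of genes was given to a contig with at least 30 junctions when 90% or more of them fell inside its genes and when the contig's reach was 80 to 120% of the run's last gene end. This placed 54 of 267 runs. Gene strand was that with more polyA alignments, which 9415 placed genes had. Shares carry Clopper-Pearson intervals and medians order-statistic intervals. The code was tested on simulated pairs with even polyA coverage up to each site. Fading before the ends, introns, groups larger than a pair and the closest spacings were not covered by that test. The members, classes and lists were chosen with earlier results of these data known. Named pairs were the 10 unbroken pairs with most reads, the 5 with the highest and the 5 with the lowest proximal share among unbroken pairs with 1000 reads, the 5 broken pairs with most reads and the 3 largest groups. Fixed lists of piRNA pathway, polyadenylation, ribosomal protein, maternal and cell type marker genes were not used, since 15083 of 15386 symbols are numbers, so the ovary label was not checked against markers. The other libraries of the series were not analysed here.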

Additional observations from a re-analysis of the deposited data

How the results depend on the processing

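Depth and the merging rule set how many pairs are seen. With 100 reads per island there were 1715 tandem sites and 949 pairs, with a median spacing of 853 nt, coverage ratios of 0.275 (proximal) and 0.00291 (last) and 49.1% of pairs in 1 gene. With identical alignments counted once there were 1725 sites and 956 pairs, 877.5 nt, ratios of 0.268 and 0.00308 and 47.9%. With islands from whole spans there were 123 sites and 68 pairs, 791 nt, 7.35% unbroken pairs, more proximal reads in 60.3%, a median proximal share of 61.7%, ratios of 0.255 and 0.00236 and 32.7% in 1 gene. This is the version first written down, and it leaves few islands because they fuse. A neighbour limit of 1000 nt gave 511 nt, 15.5% unbroken, a proximal ratio of 0.4535 and 64.3% in 1 gene. Distances between 3' edges gave 616.5 nt and 56.8%. Unbroken cover was 5.31% with 5 alignments per base, 29.3% with introns counted and 31.8% up to the distal island (added after seeing the data). The proximal ratio was 0.42 in windows of 100 nt and 0.248 with the upstream window moved away from the fading end (also added). The cause of these shifts was not tested. The other 65 of the 97 values stayed within 1.5 times (counts) or within the intervals of the main value. They include all values without contig NW_024571840.1. The proximal share moved under no other setting than whole spans. The poly(A) signal search was not run because no genome sequence was used. No paired analysis was possible because each kind of library had 1 sample.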

Other observations

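Opposite-strand 3' end sites downstream were counted for the last sites of tandem groups and for isolated sites. A supported opposite-strand site ended within 500 nt downstream of 246 of 1345 last sites of tandem groups (18.3%, 16.3 to 20.5) and of 863 of 4600 isolated sites (18.8%, 17.6 to 19.9). Contig NW_024573031.1, whose number ends like the name of a piRNA cluster in the study, was looked up separately. It held 0 supported 3' end sites of either kind.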
